A study of Mus musculus with 31 samples.

Results

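Mammary glands of mice with a single functional Stat5b allele, labelled B, were compared at parturition and on day 6 of pregnancy. Parturition samples were taken less than 12 hours after delivery. B mice carried the combined deletion Stat5abnull on 1 chromosome and the Stat5a- knockout allele on the other, so both stages share the loss of every functional Stat5a allele and of 1 Stat5b allele, on a mixed 129SV, FVB/N and C57BL/6 background. The labels list 3 samples at parturition and 3 on day 6, but the deposited tables hold 1 column per genotype and stage, the authors' mean. Every level below is therefore a mean without an error, and differences between columns have no replicate check and no p-value. Genes were taken as members when they reached 1 FPKM (fragment counts normalised for transcript length and library size) in either B column, which kept 13513 of 22609 genes. Of these, 12556 reached the limit in both columns, 314 only at parturition and 643 only on day 6, and 9096 genes did not pass. Just inside the limit were Prss53 (0.631 FPKM at parturition and 1.001 on day 6) and Gjb1 (1.002 and 0.292), and just outside it were Cdh24 (0.878 and 0.999) and Kcna6 (0.996 and 0.561).

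The other columns come from the same series, with 0 to 4 functional Stat5 alleles. Null mice lost both genes through MMTV-Cre, a transgene active in mammary epithelium, so their stroma may keep Stat5, which was not tested. A mice kept a single Stat5a allele, BB mice (Stat5a-/-) 2 Stat5b alleles, AB mice (Stat5ab+/null) 1 allele of each gene, and AABB is wild type. Tissue was taken without lymph nodes. The protocol mentions 2 mice for a genotype, and it does not say whether the 3 listed B samples of a stage came from different animals. The sample tags of B end in L, and numbers among them recur with an R in A, but a shared animal is not stated.

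STAT5A and STAT5B are transcription factors that the prolactin receptor activates through the kinase JAK2 in mammary epithelium. During early pregnancy progesterone and prolactin drive ducts to branch and alveolar cells to divide, in part through the signal RANKL. Towards parturition progesterone falls, tight junctions between alveolar cells close, and the alveoli begin to secrete milk protein, lactose and fat globules in quantity. STAT5 binds DNA at motifs spelled TTCNNNGAA and is known to be required for alveolar development and milk protein transcription.

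Levels are given as FPKM scaled by the median ratio over the 12 columns, and differences as the log2 ratio of scaled FPKM + 1, parturition over day 6. This scale understates the differences of weakly expressed genes. The authors may have normalised the 2 stage tables separately, so levels set across stages rest on this scaling. Below, higher and lower mean a difference of at least 2-fold on this scale. In the B-labelled gland 509 genes were higher at parturition (3.77% of the members) and 500 were lower (3.7%), 7.47% together, and the median log2 ratio was −0.05. The counts given for each list below are to be read beside these shares. Adding 0.1 FPKM rather than 1 gave 697 higher and 911 lower. Without scaling the counts were 508 and 556, so which direction held more genes depended on the pseudocount and on the scaling. At 4-fold, 106 genes were higher and 64 lower. Many of the lower genes were weakly expressed, and 163 of the 500 lower genes and 111 of the 509 higher genes stayed below 5 FPKM in both columns. Levels of at least 100 FPKM in either column were reached by 51 of the higher genes and 30 of the lower ones. Of the 15 genes with the highest log2 ratio 5 were milk protein genes and 10 were skeletal muscle genes, and of the 15 lowest 7 were B lymphocyte markers.

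**Figure D1:**
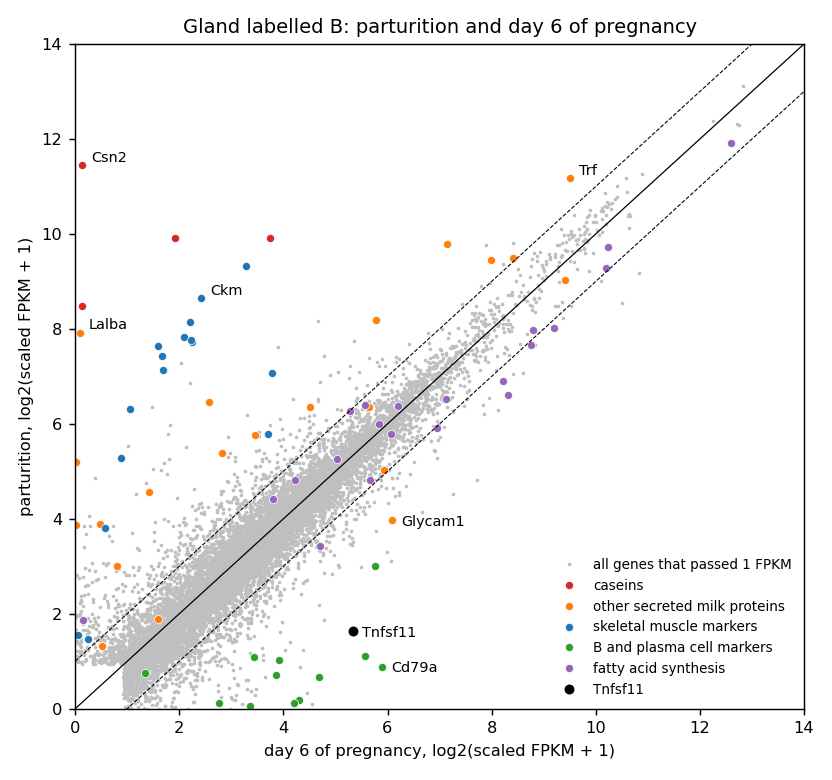
Level of each gene that passed 1 FPKM in the B-labelled gland, at parturition (vertical axis) and on day 6 of pregnancy (horizontal axis), both as log2(scaled FPKM + 1), 1 point per gene. The solid line marks equal levels and the dashed lines a 2-fold difference. Caseins, Lalba and muscle markers such as Ckm lie far above the upper line, and B cell markers such as Cd79a lie below the lower one.

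The targeted genes came first as a check of the labels. Stat5b, the allele B mice keep, stood at 13.05 FPKM at parturition, against 11.9 on day 6 (log2 ratio 0.13). Stat5a, for which B mice have no functional allele, was still listed at 8.91 FPKM at parturition and 12.01 on day 6 (−0.39). In BB, labelled Stat5a-/-, it stood at 4.51 and 3.56, below B at both stages. In wild type Stat5a was 73.5 at parturition and 31.8 on day 6, and Stat5b was 26.3 and 15.8. Because Stat5a transcript remained, every direction below refers to the columns labelled B, and these levels do not count functional alleles. Whether all cells of the tissue labelled B, stroma included, carried the B genotype was not tested. The tissue label was checked on epithelial genes. Epcam stood at 239 FPKM at parturition and 109 on day 6, the luminal keratin Krt8 at 499.7 and 248, and the basal keratins Krt5 at 128 and 68.3 and Krt14 at 97.1 and 77.4.

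Sequences just upstream of milk protein genes are shown for the genes on which the milk results turn, since the STAT5 motif is known from such regions. They are the 150 bases before the RefSeq gene start on build GRCm38.p6, written 5′ to 3′ on the gene's own strand, with TTCNNNGAA in capitals where it occurs. The build differs from the mm9 build of the alignment, and no coordinate was carried between them. Csn2 lies at chr5:87699426-87699575 on the minus strand, Csn1s1 at chr5:87666058-87666207 on the plus strand, Glycam1 at chr15:103565082-103565231 on the minus strand, Csn1s2a at chr5:87774300-87774449 on the plus strand and Lalba at chr15:98482684-98482833 on the minus strand.
Csn2: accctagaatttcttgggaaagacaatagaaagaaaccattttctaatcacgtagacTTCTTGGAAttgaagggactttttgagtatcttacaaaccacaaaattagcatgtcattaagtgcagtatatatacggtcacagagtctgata
Csn1s1: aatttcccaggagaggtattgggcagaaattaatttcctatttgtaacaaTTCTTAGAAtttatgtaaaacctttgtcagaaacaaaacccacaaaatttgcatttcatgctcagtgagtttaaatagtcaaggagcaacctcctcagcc
Glycam1: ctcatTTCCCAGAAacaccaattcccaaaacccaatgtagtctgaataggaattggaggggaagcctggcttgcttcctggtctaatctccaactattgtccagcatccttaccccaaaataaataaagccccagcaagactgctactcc
Csn1s2a: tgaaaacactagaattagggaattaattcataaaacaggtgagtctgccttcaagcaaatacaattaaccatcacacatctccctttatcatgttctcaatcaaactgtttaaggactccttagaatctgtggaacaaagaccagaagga
Lalba: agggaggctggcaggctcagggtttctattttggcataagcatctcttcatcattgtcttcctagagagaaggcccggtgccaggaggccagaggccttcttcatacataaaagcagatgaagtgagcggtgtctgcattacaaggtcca
The motif began 93 bases before the start in Csn2, 100 in Csn1s1 and 145 in Glycam1, and these letters were not in the windows of Csn1s2a and Lalba. The motif reads the same on both strands, so 1 search covers them. In the 250 bases before the start it occurred in 3 of 22 milk protein genes with a sequence (13.6%), in 6.74% of 341 genes higher in B, in 9.38% of 320 genes lower in B, and in 8.13% of all 27025 genes of the promoter table. Among the 9505 members with a sequence, from which the higher and lower genes are drawn, the share was 7.28%. The higher genes lay below the shares of the members and of the whole table and the lower genes above both. These margins were small and not tested, and a match of letters is not a measured binding site.

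Caseins, the main milk proteins, were nearly absent in the B-labelled gland on day 6 and present at parturition. Of 5 casein genes 4 passed the limit, and all 4 were higher, with a median log2 ratio of 8.17. The same 4 were higher in every other genotype. Their median was 5.97 in Null, 8.97 in A, 12.48 in BB, 13.64 in AB and 7.14 in wild type. Csn2 (beta-casein) stood at 2794 FPKM at parturition, against 0.0978 on day 6 (log2 ratio 11.31), the highest ratio of all members. Csn1s2a stood at 358 FPKM at parturition and 0.0983 on day 6 (8.35). Both were close to 0 on day 6. Csn1s1 stood at 967 FPKM at parturition and 2.803 on day 6 (7.99), and Csn3 (kappa-casein, which holds casein micelles in solution) at 971 and 12.4 (6.18). Csn1s2b did not pass, at 0.255 and 0.0649 FPKM. These parturition levels remained far below wild type, where Csn2 reached 253048 FPKM at parturition and 2802 on day 6. The parturition level of B was 1.104% of wild type for Csn2, 1.28% for Csn3, 0.841% for Csn1s1 and 0.167% for Csn1s2a. The log2 ratio of Csn2 was higher in B than in wild type (6.50), whose day 6 level was already high.

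Of the other secreted milk proteins 21 of 23 passed, 15 were higher and 1 was lower, with a median log2 ratio of 2.20 against −0.05 over all members. Lalba, which encodes alpha-lactalbumin, the subunit that turns a galactosyltransferase into lactose synthase, stood at 240.2 FPKM at parturition, against 0.0671 on day 6 (7.82). Lao1, an amino acid oxidase, stood at 35.6 and 0.0126 (5.18), and Ltf, the iron-binding lactoferrin, at 86.7 and 4.91 (3.89). Wap (whey acidic protein) stood at only 13.5 FPKM at parturition, against 0.0133 on day 6 (3.84), while wild type held 143518 and 13.2. The polymeric immunoglobulin receptor gene Pigr stood at 13.8 and 0.388 (3.41), and Trf (transferrin) and Lcn2 (lipocalin 2) were the most abundant of the list at parturition. Trf stood at 2304 FPKM at parturition and 722 on day 6 (1.67), and Lcn2 at 877 and 141 (2.63). Spp1 (osteopontin) stood at 40.99 and 6.08 (2.57) and Mfge8, a milk fat globule protein, at 695 and 251 (1.46).

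Glycam1, a mucin-like milk protein, went the other way. It stood at 14.7 FPKM at parturition, against 67.1 on day 6 in B (−2.12), and at 134016 and 77.3 in wild type (10.74). In A it stood at 331 FPKM at parturition and 43.9 on day 6 (2.89), and in Null at 247 and 15.4 (3.92). In BB and AB its log2 ratio was 11.05 and 15.65, so B was the 1 genotype of the 6 in which Glycam1 was lower at parturition. Together, the casein and secreted milk protein lists held 2.59% of all FPKM in B at parturition, against 0.593% on day 6. The shares at parturition were 1.03% in Null, 5.75% in A, 44.1% in BB, 47.1% in AB and 68.5% in wild type. The summed share of B therefore lay between Null and A, an order that cannot be tested without replicate values. Some single genes stood lower in B than in Null at parturition. They included Glycam1, Csn1s2a (358 FPKM in B, 437 in Null) and Csn1s2b (0.255 and 11.1).

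**Figure D2:**
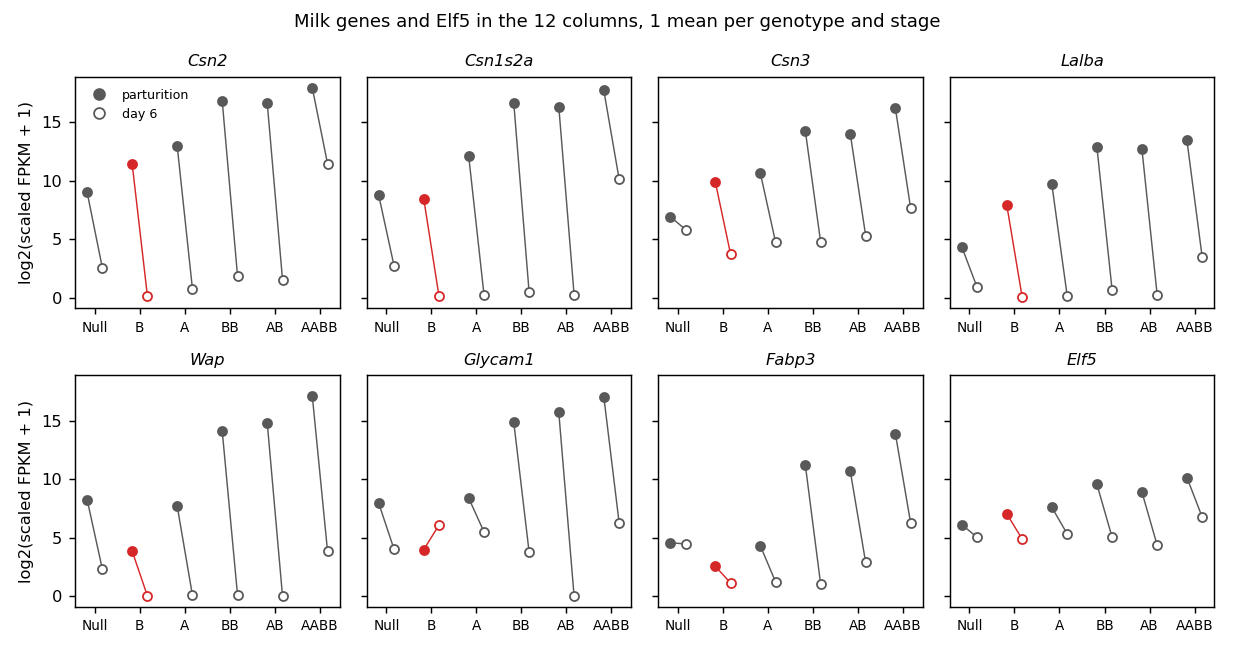
Level of 7 milk genes and the transcription factor Elf5 as log2(scaled FPKM + 1) in each genotype, in order of functional Stat5 alleles. Filled points are parturition, open points day 6, each the authors' mean, with B in red. Csn2, Csn1s2a and Lalba climb from near 0 in B, Wap and Fabp3 stay low at parturition, and Glycam1 is lower at parturition.

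Milk fat genes divided. Of 13 milk fat globule and lipid droplet genes 4 were higher and 1 was lower, with a median of 0.17. Btn1a1, the butyrophilin that coats secreted globules, stood at 154 FPKM at parturition, against 3.08 on day 6 (5.25). The phosphate carrier gene Slc34a2 stood at 15.8 and 0.199 (3.80), and Cel, the bile salt-stimulated lipase of milk, at 37.6 and 2.50 (3.46). The partner of butyrophilin in globule secretion, Xdh, differed by less than 2-fold, at 63.7 FPKM at parturition and 47.7 on day 6 (0.41), as did the droplet coat gene Plin2, at 279 and 192 (0.54). Fabp3, a fatty acid carrier of the lactating gland, stood at 4.92 and 1.199 (1.43), against 15201 and 74.4 in wild type. Plin4, a droplet coat of adipocytes, was lower, at 82.4 and 176 (−1.08).

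More fatty acid synthesis genes were lower than higher. Of 21 genes 1 was higher and 6 were lower, with a median of −0.61. The median was −0.08 in Null, −0.43 in A, −1.07 in BB, −0.90 in AB and 0.61 in wild type. Only wild type had a positive median. Olah, the thioesterase that ends medium-chain fatty acids in milk fat, was the higher one, at only 2.63 FPKM at parturition and 0.114 on day 6 (1.70), against 1199 and 3.37 in wild type. The elongase gene Elovl6 stood at 96.3 FPKM at parturition and 316 on day 6 (−1.70). Acaca, which encodes the acetyl-CoA carboxylase that makes malonyl-CoA, stood at 119 and 297 (−1.32), and Mlxipl, a glucose-sensing transcription factor of lipid synthesis, at 9.71 and 25.1 (−1.29). The malic enzyme gene Me1, Acly (ATP citrate lyase) and Acss2 (acetyl-CoA synthetase) were the remaining lower genes, with log2 ratios of −1.18, −1.10 and −1.04, and Acss2 was within 2-fold when the B columns were scaled by themselves (−0.99). Fasn, the fatty acid synthase, stood at 618 FPKM at parturition and 1169 on day 6 (−0.92), within 2-fold. These enzymes are also abundant in fat tissue. The 18 white adipocyte markers had a median of −0.43, 2 of them were lower, and their summed level was 22175 FPKM at parturition and 24723 on day 6. Their part in the lipid values was not tested. In bulk tissue, fewer cells of a type and less RNA per cell cannot be told apart.

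Of 20 genes of fatty acid uptake and triglyceride assembly none was higher and 1 was lower, Dgat2, a final enzyme of triglyceride synthesis, at 299.6 FPKM at parturition and 658 on day 6 (−1.13). Lpl (lipoprotein lipase) stood at 778 and 983 (−0.34). Of 20 cholesterol synthesis genes 18 passed and none differed 2-fold, with log2 ratios between −0.65 (Lss) and 0.65 (Srebf2) and a median of −0.17 (0.98 in wild type). Hmgcs1 is listed at 0 in both B columns and in wild type, so its value was not used.

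Of 17 genes of lactose synthesis and glucose supply 4 were higher and none was lower. They were Lalba, the aldolase gene Aldoc at 88.3 FPKM at parturition and 24.4 on day 6 (1.82), the sodium-glucose carrier gene Slc5a1 at 9.104 and 2.97 (1.35), and the hexokinase gene Hk1 at 34.8 and 15.8 (1.09). B4galt1, the galactosyltransferase that works with alpha-lactalbumin, stood at 44.2 and 37.99 in B (0.21), and at 642 and 51.7 in wild type. The glucose carrier gene Slc2a1 stood at 22.1 and 14.1 in B (0.62), within 2-fold.

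Genes of mineral transport and local serotonin had 4 higher and no lower members among 21 that passed. Tph1, the enzyme that starts serotonin synthesis, stood at 44.3 FPKM at parturition, against 3.39 on day 6 (3.37), whereas in wild type it stood at 3.18 and 19.6 (−2.30). The zinc and metal carriers Slc39a8 and Slc39a14 stood at 38.6 and 6.69 (2.36) and at 23.1 and 8.09 (1.41), and the vitamin D receptor gene Vdr at 18.2 and 7.94 (1.10). Atp2b2, the calcium pump that moves calcium into milk, did not pass in B, at 0.0377 and 0.0849 FPKM, against 65.7 and 0.0551 in wild type. The Golgi calcium pump gene Atp2c2 stood at 5.86 and 2.92 (0.81). Among 17 amino acid carriers that passed, Slc1a4 was higher, at 12.2 and 3.03 (1.71), and Slc1a5 was lower, at 132 and 339.9 (−1.36). Both carry neutral amino acids.

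In the prolactin, JAK and STAT5 list 3 of 25 genes were higher and 1 was lower. Over all members 3.77% were higher and 3.7% lower, so the single lower gene is near that share. Elf5, a transcription factor that specifies alveolar cells downstream of prolactin, stood at 130.4 FPKM at parturition, against 28.7 on day 6 (2.15). Gata3, a luminal lineage factor, stood at 68.5 and 20.1 (1.72), and Id2, needed for alveolar growth, at 93.01 and 41.4 (1.15). Elf5 was also higher at parturition in wild type, at 1126 and 107 (3.38), while Gata3 was not (−0.42). The receptor and kinase genes differed little, with Prlr at 49.1 and 38.7 FPKM (0.33) and Jak2 at 19.5 and 19.6. The feedback inhibitor genes Cish and Socs2, which STAT5 is known to induce, stood at 15.9 and 13.4 (0.24) and at 11.6 and 16.1 (−0.44). Stat3, the STAT factor of involution, stood at 73.3 and 42.9 (0.76).

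Some pregnancy signals of hormone-sensing cells were lower at parturition. Tnfsf11, which encodes RANKL, stood at 2.09 FPKM at parturition, against 39.4 on day 6 (−3.71). Calca, the calcitonin gene that progesterone induces, stood at 22.04 and 151 (−2.72), and Areg, which encodes the growth factor amphiregulin, at 16.8 and 101 (−2.52). The same 3 genes were lower in wild type, at 0.0574 and 44.95 for Tnfsf11 and 1.52 and 205 for Calca, while Areg is listed at 0 at parturition and at 95.2 on day 6. Areg was also lower in Null (−5.71), A (−4.40), BB (−4.39) and AB (−4.22). Calca was lower in A (−3.03), BB (−4.99) and AB (−5.06) but within 2-fold in Null (−0.39). Other genes of the same cells did not follow in B. The progesterone receptor gene Pgr stood at 8.97 FPKM at parturition and 4.08 on day 6 in B (0.97), against 0.419 and 3.099 in wild type. Foxa1, a partner of the estrogen receptor, stood at 26.2 and 17.7 in B (0.54), against 1.05 and 19.7 in wild type. The 11 hormone-sensing markers had 3 lower and no higher genes in B, with a median of 0.13, and a median of −3.26 in wild type. Across all 27 passed genes of the hormone and growth factor list 2 were higher, the receptor genes Erbb2 (1.09) and Erbb3 (1.06), and 4 were lower, the fourth being Igf1, at 15.8 and 32.8 FPKM (−1.01), which was within 2-fold when the B columns were scaled by themselves (−0.97).

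Several epithelial junction and luminal genes were higher at parturition, and none was lower. Of 17 tight junction genes 6 were higher, with a median of 0.70. It was 0.07 in Null, 0.68 in A, 0.65 in BB, 1.01 in AB and 0.11 in wild type. Tjp3, a scaffold of the junction, stood at 28.3 FPKM at parturition, against 7.602 on day 6 (1.77), and the claudin genes Cldn7 at 40.4 and 13.7 (1.50), Cldn1 at 19.2 and 7.62 (1.23) and Cldn3 at 111 and 47.6 (1.21). The claudin gene Cldn8 stood at 20.3 and 9.79 in B (0.98), within 2-fold, and at 164 and 10.8 in wild type. Of 18 luminal markers, Cldn3, Cldn4 and Cldn7 of the junction list among them, 11 were higher, with a median of 1.06. It was −0.21 in Null, 1.11 in A, 0.55 in BB, 1.34 in AB and −0.33 in wild type. Krt18 stood at 655 and 298 FPKM (1.13), and the protease inhibitor gene Spint2 at 163 and 58.1 (1.47). The summed level of the luminal markers, the shared claudin genes included, was 2726 FPKM at parturition and 1487 on day 6. The part of luminal epithelium in the junction values was not tested. Of 13 basal and myoepithelial markers 1 was higher, the cadherin gene Cdh3 (1.62), and none was lower, with a median of 0.34.

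**Figure D3:**
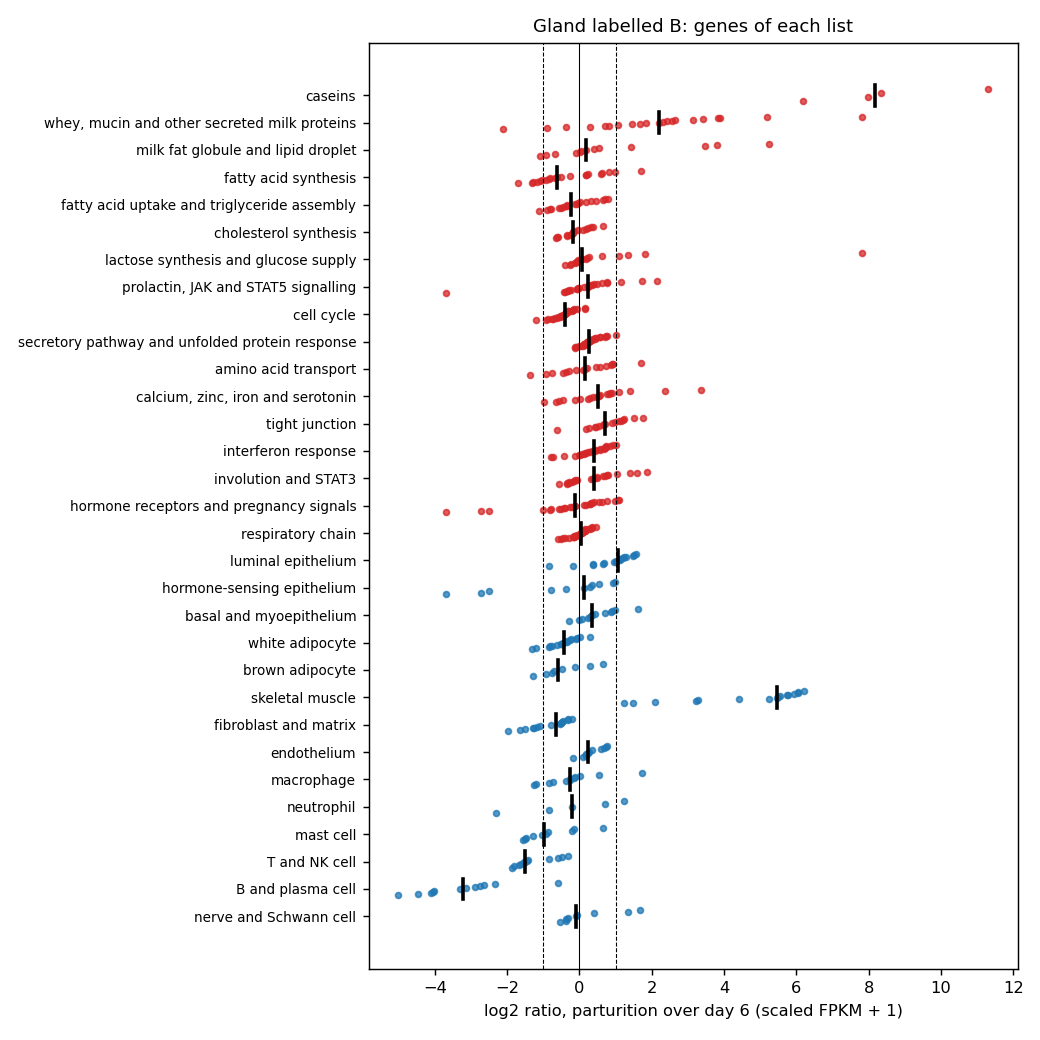
Log2 ratio of each gene, parturition over day 6, in the B-labelled gland for the lists with at least 3 passed genes. Points are genes, red for process lists and blue for cell type markers, black bars are medians, and dashed lines mark a 2-fold difference. Caseins (median 8.17) and skeletal muscle markers (5.47) lie highest and B and plasma cell markers (−3.22) lowest.

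Lists of cell division and of general secretion moved little. Over all members 3.77% were higher and 3.7% lower, shares near 1 gene in lists of this size. Of 30 cell cycle genes none was higher and 1 was lower, the proliferation marker Mki67, at 2.63 FPKM at parturition and 7.44 on day 6 (−1.22), and the median was −0.40. In wild type Mki67 was higher at parturition, at 27.5 and 8.01, the 1 higher gene of the list there, while 8 were lower and the median was −0.33. Of 31 genes of the secretory pathway and unfolded protein response 1 was higher, Sdf2l1, at 25.9 and 12.4 (1.01), and the median was 0.26. In wild type 21 of them were higher and the median was 1.54. Xbp1, which drives growth of the endoplasmic reticulum, stood at 238 and 144 in B (0.73), within 2-fold, against 812 and 198 in wild type.

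Of 26 interferon-response genes 1 was higher, a share near that of all members (3.77%). It was Irf7, at 36.8 and 17.7 FPKM (1.01), and the median of the list was 0.39. Of 35 respiratory chain genes none differed 2-fold, and the median was 0.04. Among 22 involution and STAT3 genes 4 were higher and none was lower. Igfbp5, a binding protein of insulin-like growth factors that involution raises, stood at 873 FPKM at parturition, against 238 on day 6 (1.87), whereas wild type held 76.5 and 219 (−1.50). Tgfb3, a growth factor of the same phase, stood at 71.7 and 23.02 (1.60) and the transcription factor gene Cebpb at 42.4 and 15.3 (1.41). The fourth was Bcl3 (1.03).

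Skeletal muscle genes made up much of the upper end of the ranking. All 16 muscle markers passed and were higher, with a median log2 ratio of 5.47. Ckm (muscle creatine kinase) stood at 399 FPKM at parturition, against 4.36 on day 6 (6.22), Acta1 (skeletal actin) at 639 and 8.69 (6.05), and the calcium pump gene Atp2a1 at 199 and 2.02 (6.05). Their summed level in B was 2803 FPKM at parturition and 61.2 on day 6. In the other columns it was lower at parturition in BB and AB and higher in the rest, at 4670 and 653 in Null, 2977 and 108 in A, 17.2 and 182 in BB, 21.9 and 8220 in AB, and 327 and 178 in wild type. Among the members, 102 genes were at least 4-fold higher in AB than in BB on day 6, the columns with the most muscle transcript and with little, a limit chosen after these sums were seen. Of these, 78 were higher in B and 4 lower. Without them, 431 genes were higher and 496 lower in B. Which of the B samples of a stage held muscle cannot be seen in the means.

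B lymphocyte genes made up much of the lower end. Of 12 B and plasma cell markers 11 were lower, with a median of −3.22. The B cell receptor component Cd79a stood at 0.847 FPKM at parturition, against 58.6 on day 6 (−5.01) and Cd79b at 1.17 and 46.7 (−4.46). Further B cell genes among the 15 lowest included Ms4a1 (−4.02), Fcer2a (−4.07), Cr2 (−3.31) and Pou2af1 (−3.14), and the class II gene H2-Ob, of a family with similar members, was −3.16. Of 12 T and NK cell markers that passed 8 were lower, with Cd3e at 0.0144 and 2.704 (−1.87). No B cell marker is listed at 0 in either column, and Cd8b1 of the T cells is at parturition. The summed level of the B cell markers was 13.5 FPKM at parturition and 274 on day 6 in B, and 5.20 and 193 in A. On day 6 it was 28.0 in Null, 31.9 in BB, 13.7 in AB and 8.34 in wild type. The tissue was taken without lymph nodes per the labels' protocols, and the part of lymphoid tissue in these values was not tested.

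Matrix and mast cell genes were also lower. Of 16 fibroblast and matrix genes 7 were lower and none was higher, with a median of −0.66. Postn (periostin) stood at 371 FPKM at parturition, against 1458 on day 6 (−1.97), and the collagen gene Col3a1 at 576 and 1821 (−1.66). Their summed level was 3941 and 8246 FPKM. Of 10 mast cell markers 5 were lower, with the mast cell protease genes Cma1 at 41.8 and 119 (−1.49) and Mcpt4 at 51.5 and 127 (−1.29), genes of a family with similar members. Of 12 macrophage markers 1 was higher, Cd14 at 165 and 49.2 (1.73), and 2 were lower, Mrc1 (−1.19) and Cd163 (−1.26). None of 12 endothelial markers differed 2-fold, and the median was 0.25. Of 8 brown adipocyte markers 1 was lower, Cox8b (−1.27), and of 9 nerve and Schwann cell markers 2 were higher, including Sox10 (1.66). Of 5 neutrophil markers S100a9 was higher (1.24) and Retnlg lower (−2.31). Of 6 measured red blood cell genes only Alas2 passed (−1.38), and the hemoglobin genes Hba-a1, Hbb-b1 and Hbb-b2 are listed at 0.

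**Figure D4:**
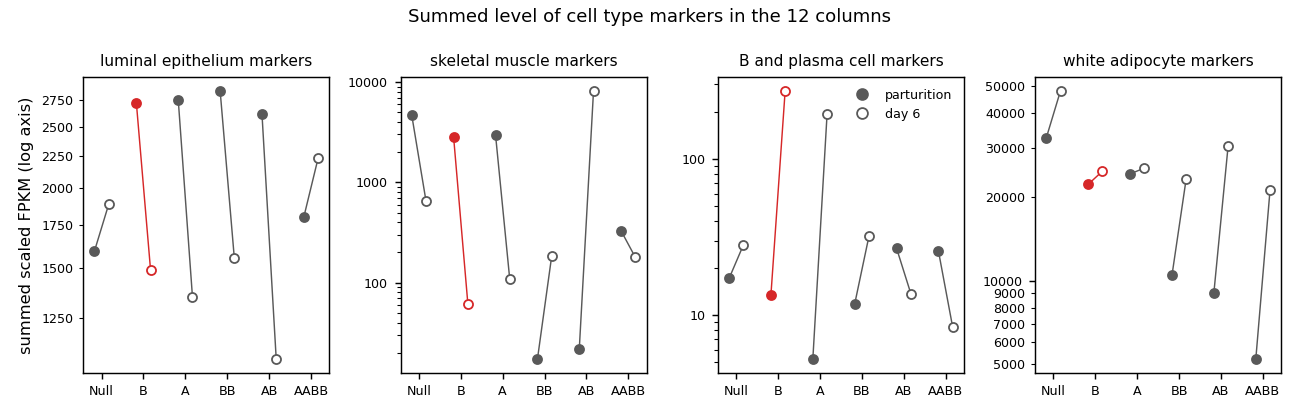
Summed scaled FPKM (log axis) of luminal, skeletal muscle, B and plasma cell and white adipocyte markers in each genotype. Filled points are parturition, open points day 6, with B in red. In B, muscle stands at 2803 against 61.2, B cell markers at 13.5 against 274 and adipocyte markers at 22175 against 24723.

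Among the remaining lowest genes, the trypsin inhibitor gene Spink3 stood at 0.0675 FPKM at parturition, against 22.5 on day 6 (−4.46), the fibrinogen gene Fgg at 0.837 and 18.8 (−3.43), and Marco, a scavenger receptor of macrophages, at 0.331 and 10.1 (−3.05). Faim3 (−4.12), Ptprcap (−3.14) and Serpinb11 (−3.10) completed the list. Like the B cell markers, Faim3 stood higher on day 6 in B (20.97 FPKM) and A (12.46) than in the other genotypes. The most abundant transcript of the B-labelled gland was the adipocyte gene Fabp4 at both stages, at 8888 FPKM at parturition and 7285 on day 6. Csn2 was among the 10 most abundant at parturition, together with Trf, Eef1a1, Cfd, Car3, Scd1, Rplp1, B2m and Rps12. On day 6 Col3a1, Tmsb4x, Apoe and Sparc stood in that group in place of Csn2, Trf, B2m and Rps12.

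The same stage difference in the other genotypes was set beside that of B. The number of genes that differed 2-fold was 831 in Null (6.31% of the genes passing there), 1009 in B (7.47%), 1256 in A (9.31%), 2021 in BB (15.7%), 2145 in AB (16.5%) and 3746 in wild type (28.7%). Genes higher at parturition made up 3.52% in Null, 3.77% in B, 4.93% in A, 6.33% in BB, 6.52% in AB and 12.2% in wild type. Lower genes made up 2.79% in Null, 3.7% in B, 4.38% in A, 9.33% in BB, 10% in AB and 16.6% in wild type. The order of Null and B depended on the processing. An equal-sum scaling set the columns to 1 summed FPKM in place of the median ratio. The milk protein, milk fat globule and fatty acid synthesis lists were left out of that sum but stayed in the counts. With it 1065 genes differed in Null and 1062 in B, and higher genes numbered 930 in Null and 471 in B. They numbered 820 and 697 with a pseudocount of 0.1 and 575 and 508 without scaling. The totals of BB and AB, 2107 and 2083 with the equal-sum scaling and 2930 and 2906 with a pseudocount of 0.1, also changed order. Without scaling the split in wild type was 824 higher and 3817 lower in place of 1585 and 2161, and the median log2 ratio of all genes shifted by −0.44 there, against −0.03 in B. With 1 column per group, the difference between genotypes has no test.

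Of the 509 genes higher in B, 440 were also higher in A, which is 86.4% of those of B and 66.2% of those of A. Of the 500 lower genes 364 were lower in A too (72.8% and 61.6%). Across the 13513 members Pearson's r of the log2 ratios of B with those of A was 0.913, a description over genes that are not independent and that share the scaling. Whether samples of B and A came from shared animals is not stated. With the other genotypes r was 0.211 for Null, 0.357 for BB, 0.289 for AB and 0.243 for wild type. Spearman's rank correlation was 0.908 for A, −0.0017 for Null, 0.244 for BB, 0.352 for AB and 0.166 for wild type. The order of BB and AB therefore depended on the measure, and by rank B and Null were not correlated. In A, 16 of the 16 muscle markers were higher and 11 of the 12 B and plasma cell markers lower, and the part of such genes in r was not tested. Of the T and NK cell markers 8 were lower in B and 1 in A, with medians of −1.50 and −0.54 and summed levels of 10.9 FPKM at parturition and 42.6 on day 6 in B, and 10.1 and 18.3 in A.

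Where B and A differed most, among genes called in B, B was lower in its log2 ratio for Glycam1, Ly6d, Spp1, Wap and Csn1s2a. Genes that differed 2-fold only in A were not ranked. Spp1 stood at 40.99 and 6.08 FPKM in B (2.57), and at 420.5 and 7.30 in A (5.67). Wap stood at 13.5 and 0.0133 in B, and at 208 and 0.0491 in A. The surface protein gene Ly6d stood at 18.1 and 46.1 in B (−1.30), and at 39.7 and 10.4 in A (1.83). B was higher for Mrgprg, Ear11, Wfdc12, Pcp4 and Ido1. Ido1, the enzyme that breaks down tryptophan, stood at 115 and 3.61 in B (4.65), and at 1.07 and 0.736 in A. In Null it stood at 71.4 and 1.92, so it was not high at parturition in B alone. Wfdc12, a whey-type protease inhibitor, stood at 22.6 and 1.68 in B (3.14), and at 16.5 and 17.4 in A. Pcp4, a calmodulin-binding protein gene, stood at 35.02 and 2.28 in B, and at 3.48 and 3.24 in A.

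Against wild type, 160 genes were higher in both, 31.4% of those of B and 10.1% of those of wild type, and 145 were lower in both (29.0% and 6.71%). Another 63 were higher in B and lower in wild type, and 32 were lower in B and higher in wild type. Of the genes higher in wild type 1393 (87.9%) stayed within 2-fold in B, and of those lower in wild type 1953 (90.4%) did. Only 7.47% of all members differed 2-fold in B, so most genes stayed within it whatever their direction in wild type. Conversely 286 of the genes higher in B (56.2%) and 323 of those lower in B (64.6%) were within 2-fold in wild type. Of all genes that passed in wild type, 12.2% were higher there and 16.6% lower, 28.7% together.

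The log2 ratio of B lay furthest below that of wild type, among genes called in B, for Glycam1 (difference −12.86), Wap (−9.46), Saa2 (−6.55), Olah, Lao1, Fabp3, Spp1, Sftpd, Saa1 and Igj. Saa1 and Saa2 are near-identical acute-phase genes whose reads may be split uncertainly, and Saa1 stood at 11.9 and 0.155 FPKM in B, against 1057 and 1.11 in wild type. Sftpd, a collectin of innate defence, stood at 1.63 and 0.293 in B, against 745 and 4.56 in wild type. The genes for which it lay furthest above included Fcgbp (7.65), Atp2a1, Tph1, Acta1, Wfdc12, Atp6v1b1, Tnnc2, Alox12e and Csn2, among them 3 muscle genes. Fcgbp, a mucin-like secreted protein gene, stood at 195 FPKM at parturition and 13.99 on day 6 in B (3.71), against 3.78 and 72.2 in wild type. Its log2 ratio was 3.30 in A, 0.31 in Null, −0.15 in AB and −1.80 in BB. Atp6v1b1, a subunit of the proton pump of acid-secreting epithelial cells, stood at 172 and 26.5 in B (2.65), against 7.02 and 40.2 in wild type. Its log2 ratio was 0.84 in Null, 3.14 in A, 3.51 in BB and 3.06 in AB, so only in wild type was it lower at parturition.

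**Figure D5:**
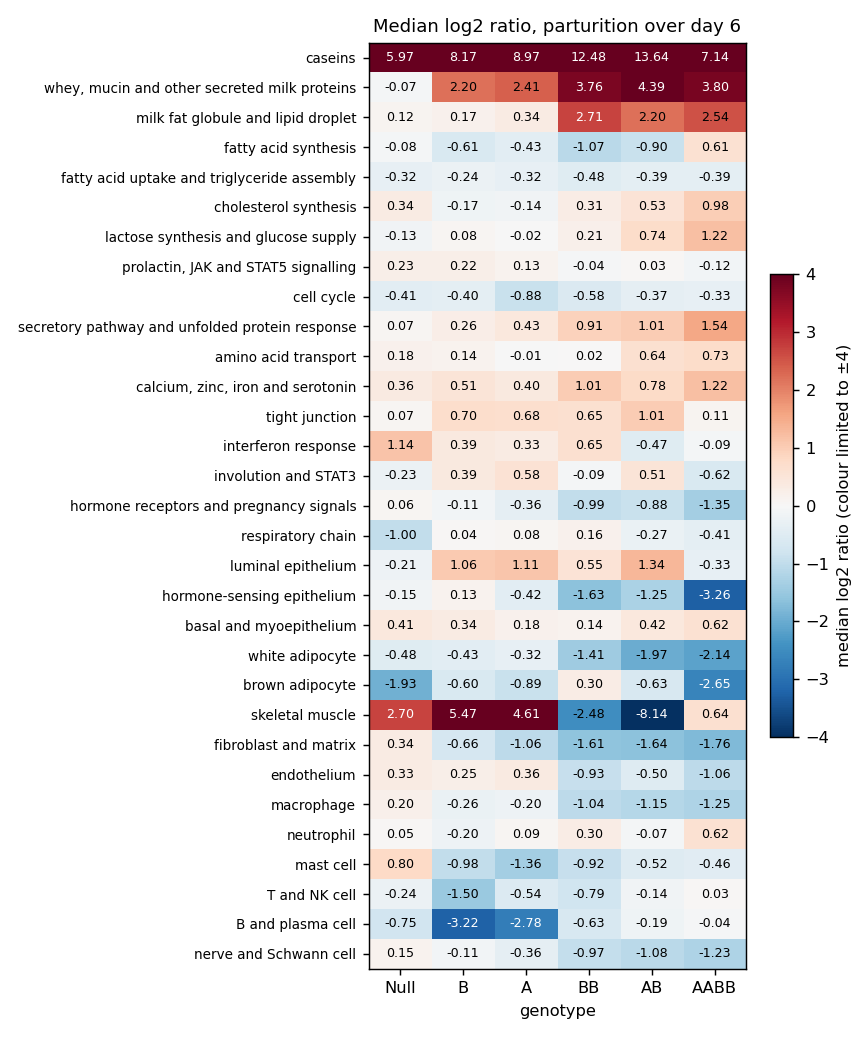
Median log2 ratio, parturition over day 6, of each list (rows) in each genotype (columns, in order of functional Stat5 alleles), over the genes that passed in B, with the value printed in each cell and colour limited to ±4. The B column lies near A, with caseins at 8.17 and 8.97, and differs from wild type in the hormone-sensing (0.13 and −3.26) and luminal (1.06 and −0.33) lists.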

How the data were processed

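Mammary RNA was extracted with TRIzol and RNeasy and made into TruSeq poly(A) libraries for HiSeq sequencing, per the labels' protocols. The submitters' processing notes name CASAVA, TopHat and the build mm9, without versions. The deposited values are FPKM per gene symbol, computed by the authors with a program, annotation and filters not given in the sources used here. The depth of each library is unknown, and no counting interval is given. The 2 tables were joined on gene symbol, and a median ratio over the 10608 genes that reached 1 FPKM in all 12 columns set the scaling. The pseudocount was 1. The planned tests need values per sample and were not used. Members and 32 gene lists were chosen with earlier results of these data known. Named genes are Stat5a and Stat5b, up to 5 genes per list by absolute log2 ratio and 2 by level, the 15 highest and lowest log2 ratios and the 10 highest levels per column. Among genes called in B, the 10 largest differences each way from wild type and 5 from A were added. Epcam, Krt8 and Krt14 check the tissue, and other list members were named for their role or to complete a count after their values were seen (Acly, Acss2, Atp2b2, Atp2c2, B4galt1, Cish, Cldn8, Csn1s2b, Fasn, Foxa1, Hmgcs1, Igf1, Jak2, Mfge8, Plin2, Prlr, Socs2, Xdh and the hemoglobin genes). Some genes named by this rule are not reported here. Promoter sequences are from RefSeq (GRCm38.p6), and 22 of 28 milk protein genes matched. Length and GC content came from GENCODE M21 for 99.1% of members. Scripts were tested on simulated data and run in Python 3.11.15 with numpy 2.4.6, pandas 2.3.3, statsmodels 0.14.6 and matplotlib 3.10.9.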

Additional observations from a re-analysis of the deposited data

How the results depend on the processing

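Of the 244 named genes in each of these fits, none that passed 2-fold changed direction without scaling or with the 2 B columns scaled by themselves. None did with the equal-sum scaling or with the trend with length and GC content removed. A pseudocount or a filter cannot turn a direction, and 230 of the genes were present with a floor of 5 FPKM. With a pseudocount of 0.1 the lower genes numbered 911 and the higher ones 697, so the lower count rests in part on weakly expressed genes. Across the other alternatives the counts ran between 403 and 559 higher and between 354 and 591 lower. Calls were lost for Irf7, Sdf2l1 and Krt8 without scaling, and for these and Bcl3 and Erbb3 with the equal-sum scaling. They were lost for Acss2 and Igf1 with the B columns scaled by themselves. With the length and GC trend removed they were lost for Acss2, Bcl3, Cldn3, Igf1, Krt8, Ms4a2 and Sdf2l1. The luminal median was 0.997 with the equal-sum scaling. The mast cell median, −0.98, passed 2-fold at −1.18 with a pseudocount of 0.1 and −1.29 with a floor of 5 FPKM. It also did at −1.04 without scaling and −1.05 with the equal-sum scaling. Caseins alone held 1.17% of FPKM at parturition and 0.00378% on day 6. Without genes of the non-epithelial marker lists, an alternative chosen after seeing the data like the removal of muscle genes, 489 genes were higher and 462 lower. The equal-sum scaling gave 568 higher and 771 lower genes in A and 1038 and 1045 in AB, in place of 665 and 591 and of 846 and 1299. In Null the split was 575 and 270 without scaling and 930 and 135 with the equal-sum scaling, in place of 463 and 368. No paired analysis was possible because each column is a mean that carries no replicate number. Leaving out a replicate could not be run for the same reason. A mean cannot show whether 1 sample carried a difference, and the depth behind low values is unknown.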

Other observations

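Several genes outside the lists also stood high at parturition in B, and they are named here after their values were seen. Cck, which encodes the peptide hormone cholecystokinin, stood at 45.3 FPKM at parturition, against 1.01 on day 6 (4.52 on the log2 scale). Foxi1, a transcription factor of ion-transporting epithelial cells, stood at 62.01 and 2.52 (4.16), the chloride channel family gene Clic6 at 54.3 and 2.43 (4.01), and the sodium channel subunit gene Scnn1b at 51.6 and 6.61 (2.79). Both Foxi1 and Clic6 were higher at parturition in A, BB and AB as well. In wild type Foxi1 was higher at a lower level, at 6.94 and 2.59 (1.14), and Clic6 stood at 1.52 and 2.18 (−0.34). Folr1, a folate-binding protein gene, stood at 31.8 and 2.12 in B (3.39), against 1135 and 10.8 in wild type. The secreted chitinase-like protein gene Chi3l1 stood at 285 and 24.4 in B (3.49), against 10.7 and 14.9 in wild type. Its log2 ratio was 1.34 in Null, 2.94 in A, 2.78 in BB and 3.50 in AB, so it was higher there too.

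Neat1, a nuclear long noncoding RNA, stood at 27.01 FPKM at parturition and 209.8 on day 6 in B (−2.91), and at 34.4 and 170.4 in A (−2.28). In the other 4 genotypes it was higher at parturition, at 260.3 and 76.9 in Null, 40.6 and 16.1 in BB, 41.4 and 14.99 in AB, and 154 and 65.5 in wild type.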
